A study of Arabidopsis thaliana with 12 samples.

Results

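In Arabidopsis thaliana seedlings, 142 of 22746 probe sets that are not array controls were clearly higher after growth in red light than in the dark, in the wild type and in the mutant line atbzip16 alike. A probe set is the group of probes on an oligonucleotide array that reports 1 transcript or a few near-identical ones. Members were chosen by their values: a mean signal over the 12 arrays of at least 41.6 (5.38 on the log2 scale), and a mean log2 signal at least 1.5 higher in red light than in the dark (2.83-fold) in each genotype. In all, 152 probe sets met these thresholds, and 10 of them were set aside by name: LHCB4.2, PSAE-1, PSAN, HPR, EXPA16, AT5G48490, AT4G28780, AT4G38080, AT2G22510 and AT1G04660. No probe set named for a plastid-encoded gene or with a UGT, GSTU or ALDH symbol met them. Of the 142 members, 51 matched 1 named gene, 3 matched several genes and are not named, and 88 were not listed in the annotation used here and appear by probe set ID alone, so a gene set aside by name could still be among them. Because the light response chose the members, it is described here without a test.

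The study measured total RNA from aerial parts of 4-day-old seedlings in 4 groups of 3 biological replicates, 1 array each. Wild-type seedlings of the Landsberg erecta (Ler) background and seedlings of atbzip16, a line in the same background, had either stayed in the dark (etiolated) or received red light of 0.5 µmol m-2 s-1 on a long-day cycle. The labels state neither the allele nor the number of independent lines behind atbzip16, and they do not say how many seedlings made up a sample. Titles and source names gave the groups; in the 3 dark atbzip16 and 3 red-light Ler samples the description field contradicts the title, and the treatment field of all red-light samples mentions dark as well. The shared protocol also describes polysomal RNA, but every sample is labelled total RNA.

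A seedling that germinates in darkness elongates its hypocotyl and keeps its cotyledons closed and its plastids undeveloped. Red light converts phytochrome photoreceptors to their active form, which removes PIF transcription factors and lets factors such as HY5 act, so that cotyledons open, chloroplasts mature and the epidermis forms cuticle and stomata. bZIP16 belongs to the G-group of plant bZIP transcription factors, which bind G-box elements in promoters. The level of the mutated gene was not analysed here, since the annotation used names no probe set for it.

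Each array had been scaled to the same trimmed mean, and median signals lay between 149 and 186 with no array apart in this respect. Of the tissue markers with a named probe set, 4 stood for green aerial tissue, 5 for ungerminated seed and 2 for root. The summed signal of the green markers was 13722 to 19931 on dark arrays and 37118 to 59049 on red-light arrays, and both root markers, EXPA7 and EXPA18, together gave 50.5 to 246. Summed seed markers gave 22255 to 44537 in dark Ler and 53748 to 76954 in dark atbzip16. On red-light arrays they gave 1177 to 2227 in Ler and 998 to 2007 in atbzip16. Seed transcripts thus moved with light, and in the dark their sum was higher in atbzip16 without overlap. Their part in the values below, genotype differences included, was not tested. In whole aerial parts, more cells of a type and more RNA per cell cannot be told apart.

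The median member was higher in red light by 2.17 on the log2 scale in Ler (4.49-fold) and by 2.14 in atbzip16 (4.41-fold), where the medians over all 15913 fitted probe sets were -0.06 and -0.02. Responses ran from 1.51 to 6.24 in Ler and from 1.502 to 5.59 in atbzip16. In both genotypes 67 members were higher by 2 or more, 14 by 3 or more and 1 by 4 or more. The median of the members' mean signals was 198 in dark Ler, 167 in dark atbzip16, 913 in red-light Ler and 918 in red-light atbzip16. Every red-light array stood above every dark array of the same genotype for 124 members, or 87.3%, where 8.53% of all fitted probe sets did so; the rule used this contrast, so the share says nothing further. The other 18 overlapped in at least 1 genotype and were members by their means.

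**Figure D1:**
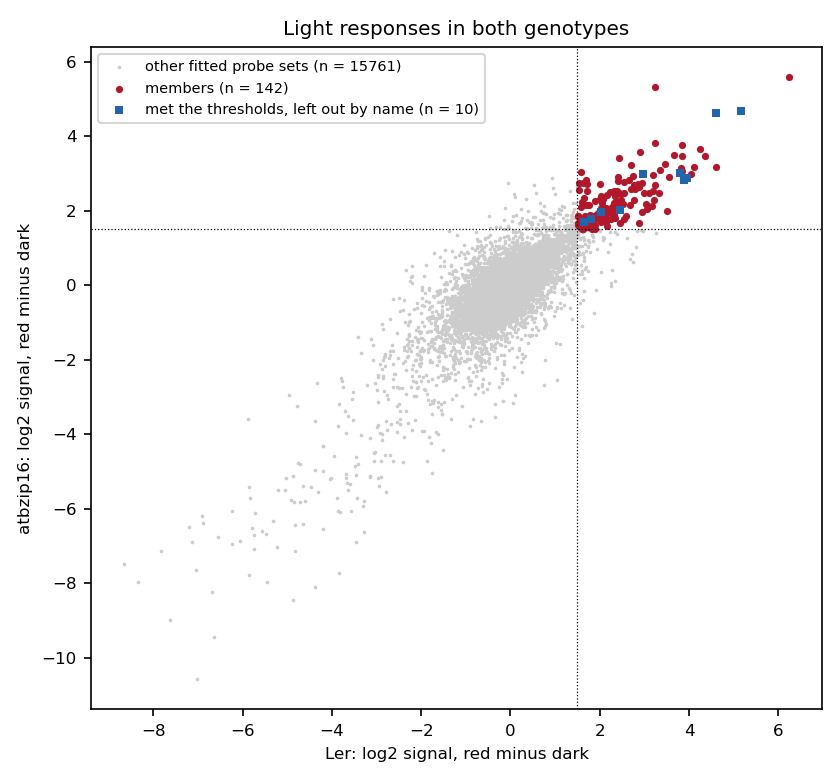
Each point is a fitted probe set, with its mean log2 signal in red light minus dark in Ler on the horizontal axis and in atbzip16 on the vertical axis; dotted lines mark the threshold of 1.5. The 142 members (red) fill the upper right corner, from 1.5 up to 6.24 in Ler, together with the 10 probe sets left out by name (blue squares).

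Many members were scarcely measured in the dark. In dark Ler 27 members, and in dark atbzip16 26, had a mean signal under 41.6, and 17 were under it in both, whereas none was in red light. The rule nearly fixes this contrast, since members with low dark signals passed the signal filter through their red-light arrays. With 16 added to each signal before the log2 step, 141 of 142 members still had both responses at 1 or more and 122 at 1.5 or more. At the other end, 45 members had a mean signal of 1000 or more over the 12 arrays, so the members span much of the signal scale of the array.

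**Figure D2:**
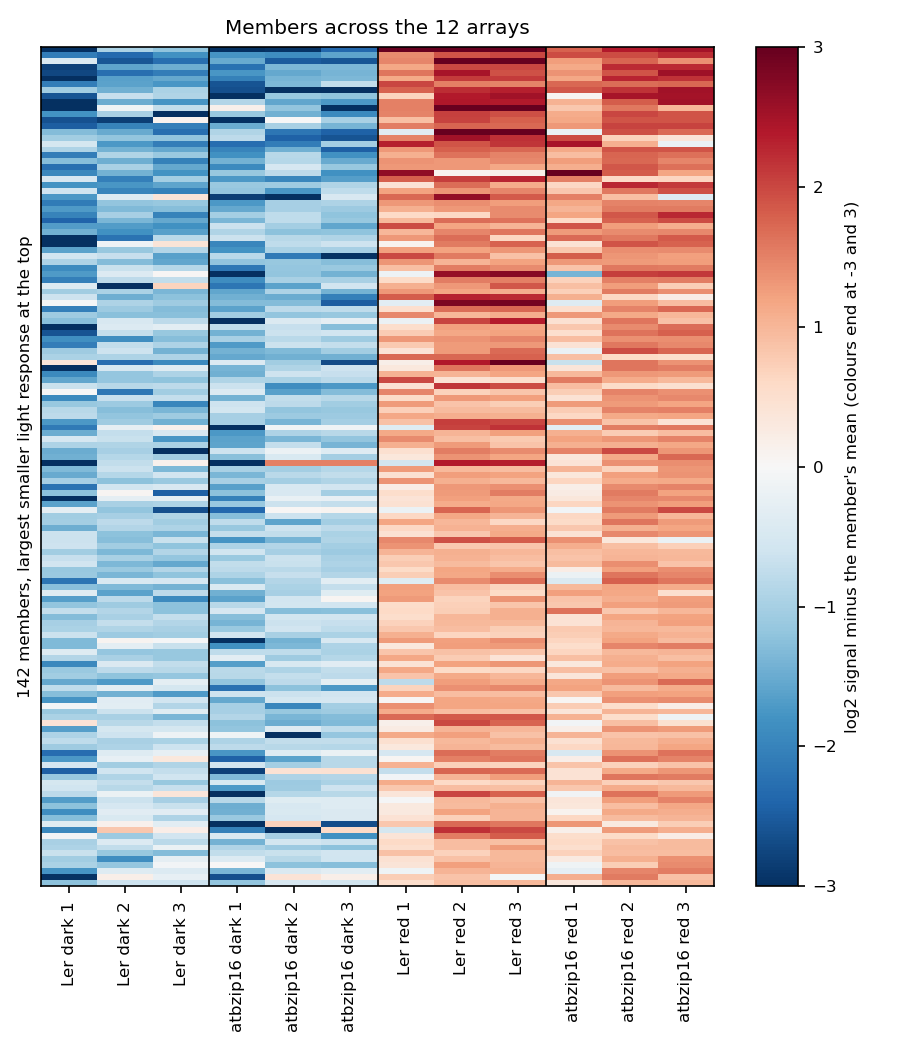
Each row is a member and each column an array, and the colour is the log2 signal minus that member's mean over the 12 arrays. All 142 members turn from blue in the 6 dark columns to red in the 6 red-light columns in their group means, and the replicate 1 columns are paler or bluer than their neighbours in the red-light groups.

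Among members with plastid products was AT1G51400, a small photosystem II-associated protein. Its signals were 5196, 4479.6 and 4536 in dark Ler, 4654, 5304 and 5270.2 in dark atbzip16, 12327, 17326 and 18354 in red-light Ler and 11965, 17332 and 18770.2 in red-light atbzip16. It gave strong signals in darkness already and stood higher in red light on every array, by 1.74 ± 0.19 in Ler and 1.63 ± 0.19 in atbzip16 (SE from the model, n = 3 arrays per group). AT5G19940, a plastid-lipid-associated (fibrillin) protein, read 1620.1, 1968 and 1740.5 in dark Ler, 1232, 2050.2 and 1993 in dark atbzip16, 5241, 6294 and 6328 in red-light Ler and 4379, 6569.5 and 7503 in red-light atbzip16. Light and dark arrays did not overlap, and the difference was 1.74 ± 0.22 in Ler and 1.81 ± 0.22 in atbzip16. AT2G34620, a member of the mTERF family of organelle gene expression factors, gave 40.7, 152 and 133 in dark Ler, 14.4, 113 and 107 in dark atbzip16, 394, 1278 and 1410.5 in red-light Ler and 262, 1360.5 and 1379.9 in red-light atbzip16. Its response of 3.25 ± 0.87 in Ler and 3.82 ± 0.87 in atbzip16 had a wider error, and replicate 1 lay low in every group. Replicate 1 was also low for AT2G42220, a chloroplast rhodanese-like protein, which read 208, 775 and 861 in dark Ler, 302, 783 and 882 in dark atbzip16, 722, 3275 and 2968 in red-light Ler and 735, 2604 and 3159 in red-light atbzip16. Replicate 1 in red light was below replicates 2 and 3 in the dark in both genotypes, so the groups overlapped although the mean responses were 1.89 in Ler and 1.62 in atbzip16.

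A further 4 named members belong to families known from light perception or daily timing. CCL (CCR-like), a clock-regulated transcript known for rapid decay, had signals of 5036, 3821 and 4166 in dark Ler, 4373, 4063 and 4070.5 in dark atbzip16, 19354, 18439.7 and 18208 in red-light Ler and 13404, 19002 and 19793 in red-light atbzip16. All 6 red-light arrays stood above all 6 dark ones, and the response was 2.11 ± 0.15 in Ler and 2.04 ± 0.15 in atbzip16. AT1G18810, of the phytochrome kinase substrate family that acts in phytochrome and phototropin signalling, went from 73.3, 52 and 47.5 to 342, 479 and 456 in Ler and from 35.3, 50.9 and 25.4 to 302, 512 and 509 in atbzip16. Its response was 2.90 ± 0.31 in Ler and 3.58 ± 0.31 in atbzip16. AT3G19850, of the NPH3 family of phototropism proteins, read 147, 129 and 86.1 in dark Ler, 131, 195 and 125 in dark atbzip16, 902, 875 and 964 in red-light Ler and 843, 1168 and 972 in red-light atbzip16, with no overlap between light conditions. It was higher by 2.96 ± 0.23 in Ler and 2.74 ± 0.23 in atbzip16. AT4G14480 (BLUS1), a kinase of blue-light signalling in guard cells, gave 56.5, 31.7 and 96.4 in dark Ler and 159, 213 and 226 in red-light Ler. Signals in atbzip16 were 87.4, 65.1 and 76.8 and 139, 242 and 301, and the responses were 1.82 in Ler and 1.51 in atbzip16, the latter close to the threshold.

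**Figure D3:**
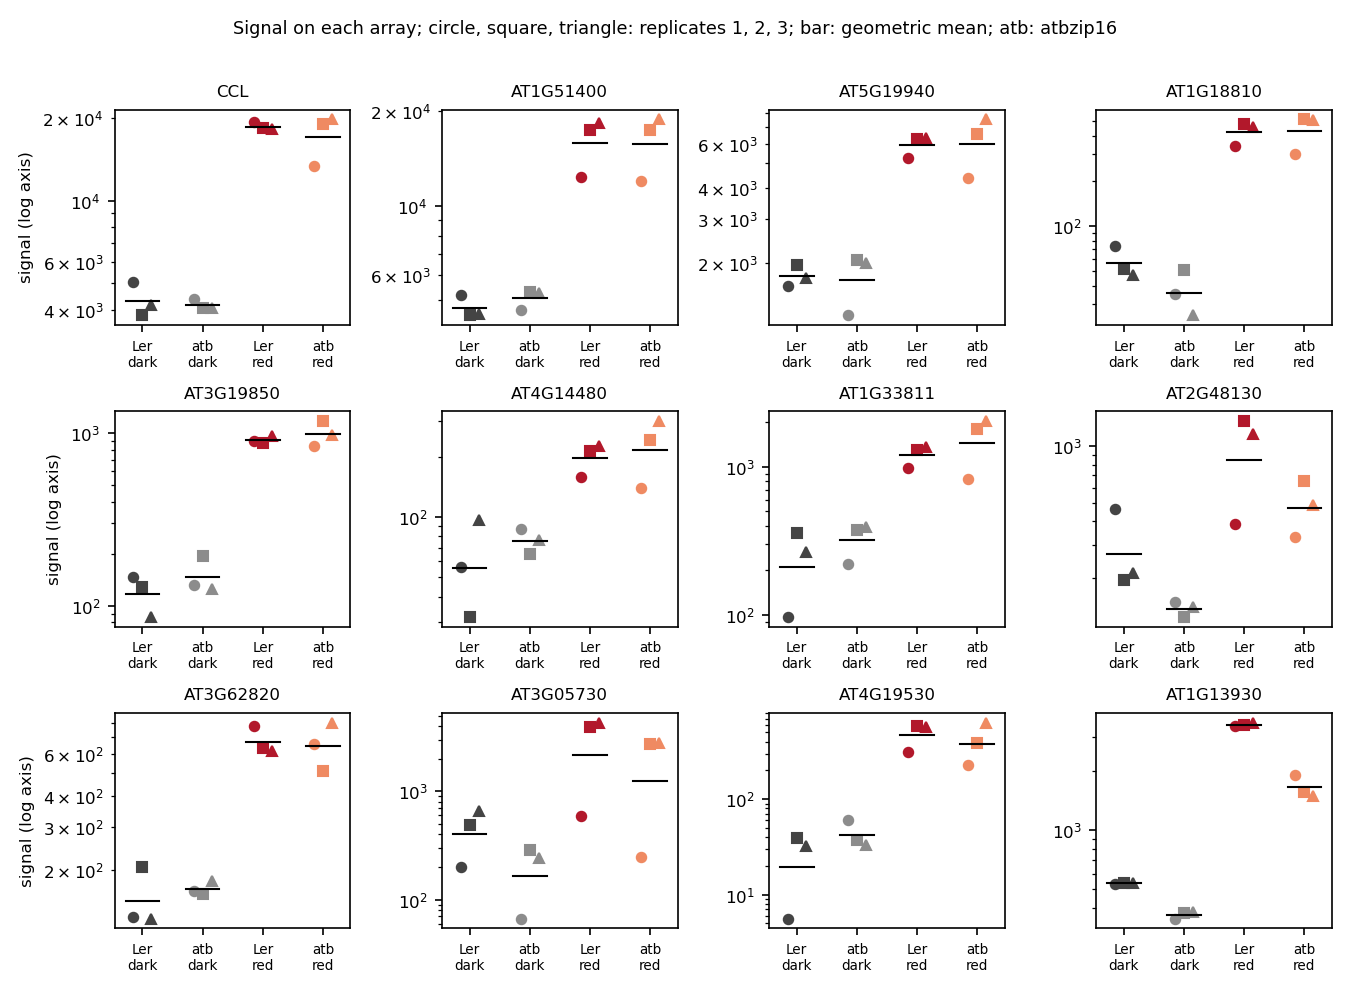
Signals of 12 named members on each of the 12 arrays on a log axis, by genotype (atb stands for atbzip16) and light, with a bar at the geometric mean of each group of 3. CCL and AT1G13930 show tight groups, whereas the circles of replicate 1 lie lowest in all 4 groups for AT3G05730, and AT1G13930 is lower in atbzip16 in both light conditions.

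Regulators and secreted signals numbered 5 among the named members. SNZ (SCHNARCHZAPFEN), an AP2-type transcription factor that represses flowering, read 23.1, 57 and 10 in dark Ler, 23, 39 and 26.9 in dark atbzip16, 77.8, 131 and 157 in red-light Ler and 64.7, 160.2 and 126 in red-light atbzip16. IQD24, of a family of calmodulin-binding IQ-domain proteins, had signals of 5.1, 11.3 and 29.8 in dark Ler, 33.6, 29.5 and 28 in dark atbzip16, 129, 165 and 81.5 in red-light Ler and 168, 155 and 186 in red-light atbzip16. Dark signals of both lay near or under the limit of 41.6 on most arrays. Their responses, 2.31 in Ler and 1.92 in atbzip16 for SNZ and 3.33 in Ler and 2.48 in atbzip16 for IQD24, were 1.67 and 1.49 and 2.199 and 2.00 once 16 was added to each signal. AT1G22690, of the gibberellin-regulated GASA family of small cysteine-rich peptides, read 25.8, 51.7 and 25.9 in dark Ler, 51, 60.7 and 44.7 in dark atbzip16, 155, 158 and 278 in red-light Ler and 235, 377 and 497 in red-light atbzip16. Its response was 2.54 ± 0.37 in Ler and 2.77 ± 0.37 in atbzip16, and atbzip16 exceeded Ler of the same replicate number in 6 of 6 pairs, with an averaged difference of 0.78 ± 0.26 that limma did not call (adjusted p = 0.449, block 0.135). AT5G10310, of the epidermal patterning factor-like family of secreted peptides, responded by 1.68 in Ler and 1.86 in atbzip16, from 32.5, 44.8 and 55.2 to 151, 134 and 129.5 in Ler. AT4G17245, a RING-type zinc finger protein, gave 969, 669 and 735 in dark Ler, 922, 678 and 775 in dark atbzip16, 2839.5, 2252 and 2184 in red-light Ler and 2492, 2213 and 2501 in red-light atbzip16. Here replicate 1 was the highest of its group in dark Ler, dark atbzip16 and red-light Ler.

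By annotated product, 10 of the 51 named genes were put together as cell-surface genes: lipases, lipid-transfer-like proteins, peroxidases and structural wall proteins. All groupings by product were made by hand after the values were seen, and 18 genes were put in none. AT1G33811, a GDSL-type esterase, had signals of 96.8, 357 and 266 in dark Ler, 219.8, 377 and 395 in dark atbzip16, 988, 1307 and 1356 in red-light Ler and 833, 1806 and 2036 in red-light atbzip16. Its arrays separated by light in both genotypes, by 2.52 ± 0.44 in Ler and 2.18 ± 0.44 in atbzip16. A second GDSL-type esterase, AT2G23540, read 76, 67.9 and 69.9 in dark Ler, 76.8, 33.4 and 36.5 in dark atbzip16, 166, 536 and 468 in red-light Ler and 230.2, 180.1 and 169 in red-light atbzip16. In red light replicates 2 and 3 of Ler stood well above the rest, while replicate 1 did not. AT2G48130, a lipid-transfer-like protein, gave 464, 194 and 212 in dark Ler, 149, 123 and 139 in dark atbzip16, 385, 1364 and 1163 in red-light Ler and 329.9, 655 and 485 in red-light atbzip16. Dark replicate 1 of Ler exceeded red-light replicate 1 there, so Ler overlapped between light conditions, with responses of 1.67 in Ler and 1.79 in atbzip16.

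Of the next wall-related transcripts, AT3G62820 had its lowest signal in replicate 1 in no group, and AT1G04800 in all 4 groups. AT3G62820, of the invertase and pectin methylesterase inhibitor family, read 128, 206 and 126 in dark Ler, 164, 159 and 179.7 in dark atbzip16, 780.2, 631 and 613 in red-light Ler and 657, 511 and 803 in red-light atbzip16. AT1G04800, a glycine-rich protein, read 201, 408 and 319 in dark Ler, 361, 496 and 491 in dark atbzip16, 624, 1254 and 1169 in red-light Ler and 824, 1520.2 and 1809.7 in red-light atbzip16. Both separated by light without overlap, at 2.17 in Ler and 1.95 in atbzip16 for the inhibitor and 1.71 in Ler and 1.56 in atbzip16 for the glycine-rich protein. The class III peroxidases AT1G68850 and AT2G35380 were at the low end in the dark. AT1G68850 ranged from 1.3 to 49.5 over the 6 dark arrays, and its response was 4.12 ± 1.21 in Ler and 3.17 ± 1.21 in atbzip16, or 2.93 and 1.73 with 16 added. AT2G35380 read 24.2, 38.5 and 29.6 in dark Ler and 148, 336 and 322 in red-light Ler, and its responses were 3.06 ± 0.39 in Ler and 2.04 ± 0.39 in atbzip16, or 2.54 and 1.66 with 16 added. In the same group, the hydroxyproline-rich glycoprotein AT5G09480 responded by 2.58 in Ler and 1.86 in atbzip16. The lipid-transfer-like AT5G13900 responded by 3.18 in Ler and 2.14 in atbzip16. In both genotypes, however, replicate 1 of AT5G13900 was lower in red light than in the dark. AT4G24140, an alpha/beta-hydrolase of the BODYGUARD family, responded by 1.54 in Ler and 2.76 in atbzip16. Its replicate 2 of atbzip16 was lower in red light than in the dark.

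Among the named members, 5 belong to families of defence-related proteins. AT3G05730, a defensin-like peptide, was uneven between replicates, with 201, 492 and 664 in dark Ler, 66.8, 285 and 242 in dark atbzip16, 585, 3954 and 4298 in red-light Ler and 247, 2721 and 2820 in red-light atbzip16. In red light replicate 1 lay several-fold below replicates 2 and 3, and the light conditions overlapped in both genotypes. AT4G19530, a TIR-NBS-LRR resistance-type protein, had the largest response in Ler among named members, with 5.6, 39.3 and 32.3 in dark Ler, 60, 37.3 and 33.2 in dark atbzip16, 314, 579 and 572 in red-light Ler and 227, 389 and 634 in red-light atbzip16. Its response of 4.61 ± 0.63 in Ler and 3.18 ± 0.63 in atbzip16 rests on dark signals as low as 5.6, and the responses were 3.66 and 2.77 with 16 added. AT2G43550, a defensin-like peptide, responded by 1.72 in Ler and 2.73 in atbzip16. The leucine-rich repeat protein AT1G33600 responded by 1.70 in Ler and 2.16 in atbzip16, and its light conditions overlapped in Ler. The S-locus lectin-type receptor kinase AT4G27300 responded by 1.61 in Ler and 1.51 in atbzip16. In atbzip16 replicate 1 of AT4G27300 was lower in red light than in the dark.

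Enzymes and redox proteins included 2 glutaredoxins. AT3G62950 read 134, 113 and 127 in dark Ler, 154, 182 and 159 in dark atbzip16, 489.9, 657 and 766 in red-light Ler and 259, 897 and 809 in red-light atbzip16, and AT1G64500 read 29.9, 54.3 and 24.8 in dark Ler, 30.7, 63.2 and 97 in dark atbzip16, 226, 149.6 and 240 in red-light Ler and 169, 199.5 and 222 in red-light atbzip16. Their responses were larger in Ler, 2.33 in Ler and 1.80 in atbzip16 for the first and 2.55 in Ler and 1.77 in atbzip16 for the second. AT5G47980, a BAHD-type acyltransferase, had signals of 170.4, 234 and 199 in dark Ler, 61, 122 and 87.5 in dark atbzip16, 459, 738 and 779.5 in red-light Ler and 667, 552 and 624 in red-light atbzip16. In the dark all 3 arrays of atbzip16 were below all 3 of Ler, whereas in red light the genotypes overlapped, and the response was 1.69 ± 0.26 in Ler and 2.82 ± 0.26 in atbzip16. The cytochrome P450 AT1G73340 responded by 2.33 in Ler and 2.41 in atbzip16 from dark signals of 5.1 to 66.8 (1.55 and 1.60 with 16 added), and the short-chain dehydrogenase-like AT4G24050 by 2.13 in Ler and 1.70 in atbzip16.

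The remaining named members fall in none of these groups. AT3G47250, a DUF247 protein, was even between replicates, with 519, 401 and 336 in dark Ler, 433, 448 and 407 in dark atbzip16, 2445, 1999 and 2257 in red-light Ler and 2419.5, 2376 and 2340.3 in red-light atbzip16 and responses of 2.43 ± 0.15 in Ler and 2.47 ± 0.15 in atbzip16. AT3G62550, a universal stress protein-like gene, read 327, 452 and 540.1 in dark Ler, 2345, 2312 and 2488 in red-light Ler, 291, 521 and 504 in dark atbzip16 and 1742, 2645 and 2678 in red-light atbzip16. Its responses, 2.47 in Ler and 2.45 in atbzip16, were close to equal. AT5G01740, an NTF2-like protein, differed from most members in that replicate 1 was its highest red-light array, at 1988 in Ler and 1888 in atbzip16 against 1027 to 1219.8 on the other 4. AT5G16030 was higher by 3.20 in Ler and 2.54 in atbzip16, AT4G18740 by 2.85 in Ler and 2.72 in atbzip16, AT1G30250 by 2.78 in Ler and 2.68 in atbzip16, AT5G25840 by 2.87 in Ler and 2.65 in atbzip16 and AT3G14760 by 2.55 in Ler and 2.47 in atbzip16. For AT3G14760, dark Ler replicate 1 differed by -4.56 on the log2 scale from the mean of the others in its group. Red-light Ler replicate 1 of this gene lay below dark Ler replicate 3. AT5G35970, a helicase-type protein, was higher by 2.07 in Ler and 1.97 in atbzip16, and AT5G55620 by 2.02 in Ler and 2.09 in atbzip16. AT1G21500 responded by 1.94 in Ler and 1.80 in atbzip16, AT2G35260 by 2.02 in Ler and 1.86 in atbzip16, AT4G16680 by 1.79 in Ler and 1.9 in atbzip16, AT1G56320 by 1.83 in Ler and 1.53 in atbzip16, AT1G69160 by 1.52 in Ler and 1.68 in atbzip16 and AT1G54740 by 1.89 in Ler and 1.51 in atbzip16. The light conditions overlapped in atbzip16 for AT1G21500.

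The members with the largest responses in both genotypes and the highest mean signals were not listed with 1 gene in the annotation. Probe set 263174_at had the largest response in both genotypes, 6.24 ± 0.94 in Ler and 5.59 ± 0.94 in atbzip16, with signals of 8.4, 189 and 159 in dark Ler, 12.9, 47.5 and 72.1 in dark atbzip16, 3743, 5292 and 5476 in red-light Ler and 1244, 1925 and 2064 in red-light atbzip16. Dark replicate 1 was near the bottom of the scale, and in red light atbzip16 lay below Ler on every array. The highest mean signals were those of 265033_at, 267002_s_at and 247073_at. Probe set 267002_s_at reached 45203, 48333 and 44334 in red-light Ler and 41352, 51801 and 51146 in red-light atbzip16, from 4329, 8110.1 and 8444 and 5594, 9328 and 9695 in the dark. Just inside the threshold lay 247073_at, 254232_at and 261196_at, whose smaller response was 1.502, 1.51 and 1.51. Just outside it were 262988_at, 247895_at and 249927_at at 1.4996, 1.499 and 1.497, so the boundary separates near-identical values.

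The members were also set beside lists of genes of known light-regulated pathways. The 16 lists, from photosystems and chlorophyll to hormones, cell wall and clock, held 518 genes. Of these, 81 had a probe set named for that gene alone, and 73 were fitted. Among the 73, 6 were higher by 1.5 or more in both genotypes (8.22%, against 0.955% of all fitted) and 3 were lower by as much. CCL was the only one of these 6 that is a member, and the other 5 were left out by name. The 88 members absent from the annotation could not be matched to the lists, so further listed genes may be among them. Of 7 light-harvesting and photosystem genes, 3 passed the thresholds (LHCB4.2, PSAE-1 and PSAN), and the list median was 1.496 in Ler and 1.49 in atbzip16. LHCB4.1 narrowly missed at 1.496 and 1.32, PSBY at 1.4 and 1.49, and PIFI, a chloroplast NDH-related protein of the electron transport list, at 1.51 and 1.44. None of 11 fitted chlorophyll synthesis genes passed, and their list median was -0.43 in Ler and 0.27 in atbzip16. Among stomatal lineage genes, SPCH had light responses of 0.70 and 1.53 and FMA of 0.86 and 0.92. Of the 73 listed genes, limma called none for the averaged genotype difference (2 had an unadjusted p under 0.05), and with replicate as a block it called NdhL lower in atbzip16 (-0.62, adjusted p = 0.0332).

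Whether the members differed between genotypes was tested on the mean of the dark and the red-light difference, atbzip16 minus Ler, since this contrast is orthogonal to both light responses that chose them. That makes it independent of the choice only where all groups have the same spread. Some members did not: the log2 SD of 263174_at was 2.53 in dark Ler and 0.30 in red-light Ler. The median averaged difference was 0.07 over the members and -0.00179 over all fitted probe sets. Leaving out 1 array moved the members' median between 0.00135 (without dark Ler replicate 1) and 0.17 (without red-light atbzip16 replicate 1). The averaged difference was above 0 for 89 of 142 members (62.7%, against 49.5% of all fitted) and smaller than 0.5 in size for 104 members (73.2%, against 93.4%). Limma called 1 member, lower in atbzip16 (0.704%), and 0 higher, where it called 0.22% of all fitted probe sets, 0.0943% lower and 0.126% higher. Of the members, 25 (17.6%) had an unadjusted p under 0.05, against 7.37% of all fitted. Arrays of the same replicate number deviated together, and with replicate as a block limma called 11 members, 5 higher and 6 lower in atbzip16 (7.75%, against 2.08% of all fitted, 1.27% higher and 0.811% lower). With replicates 2 and 3 alone, a choice made after seeing the data, it called 34 members, 18 higher and 16 lower, including all 11 (23.9%, against 5.56%). The count of called members thus depends on how the replicates are treated.

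The member called in each of these fits was AT1G13930, a small protein linked to salt tolerance. Its signals were 530.3, 539.7 and 539 in dark Ler, 354, 378 and 379.8 in dark atbzip16, 3392, 3415 and 3529 in red-light Ler and 1914, 1570.2 and 1493 in red-light atbzip16. Replicates agreed closely within each group, and atbzip16 lay below Ler without overlap both in the dark and in red light, in 6 of 6 pairs. The averaged difference was -0.80 ± 0.09 (limma adjusted p = 0.00215, and 0.000114 with the block), made up of -0.54 in the dark and -1.06 in red light. It was higher in red light by 2.68 ± 0.12 in Ler and 2.16 ± 0.12 in atbzip16.

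**Figure D4:**
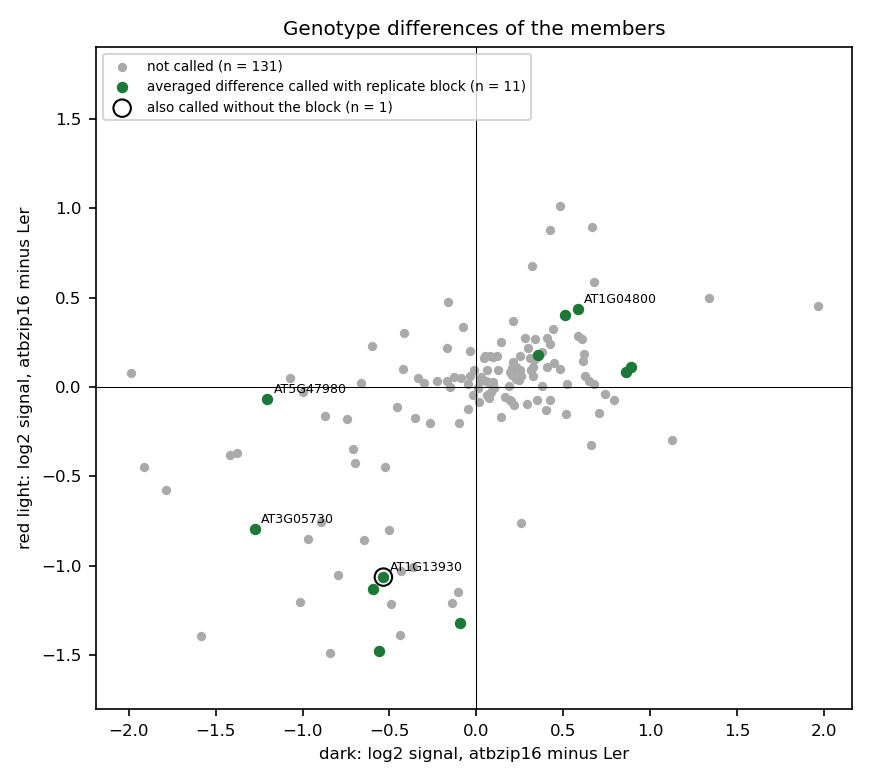
Each point is a member, with the log2 difference atbzip16 minus Ler in the dark on the horizontal axis and in red light on the vertical axis; green points were called for the averaged difference with replicate as a block, and the circle marks AT1G13930, called without it as well. Most members lie near the origin, and a group of scattered members extends to the lower left, where AT1G13930 (-0.54 and -1.06) and AT3G05730 (-1.28 and -0.80) are found.

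Among the members called with the block only, AT3G05730 had the largest averaged difference, -1.04 ± 0.69 without the block (limma adjusted p = 0.82) and an adjusted p of 0.0236 with it, and was lower in atbzip16 in 6 of 6 pairs. Leaving out 1 array moved its difference from -1.51 without red-light Ler replicate 1 to -0.46 without red-light atbzip16 replicate 1, and with replicates 2 and 3 only it was -0.85 (limma adjusted p = 0.000155). AT5G47980 was lower, at -0.63 ± 0.19 (limma adjusted p = 0.311, block 0.042), in 5 of 6 pairs. AT1G04800 was higher in atbzip16 in 6 of 6 pairs, by 0.51 ± 0.24 (limma adjusted p = 0.686, block 0.0229). Probe set 259987_at read 137, 76.9 and 90.2 in dark Ler, 78.1, 75.2 and 50.7 in dark atbzip16, 737, 1037 and 997 in red-light Ler and 445, 326 and 245 in red-light atbzip16. It was lower in atbzip16 in 6 of 6 pairs, without overlap in red light, at -1.02 ± 0.20 (limma adjusted p = 0.0715, block 0.00762). The further ones were 258905_at (-0.86) and 256994_s_at (-0.71), lower in atbzip16, and 267517_at (0.50), 258227_at (0.46), 245349_at (0.47) and 265287_at (0.27), higher. These averages need not hold in both light conditions: that of 267517_at was 0.89 in the dark and 0.11 in red light. Genotypes separated without overlap in the dark only for AT5G47980, 267517_at, 258227_at and 245349_at. They did so in red light only for 259987_at, 258905_at and 256994_s_at.

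By product, the averaged difference was above 0 for 3 of the 10 cell-surface genes (62.7% of the members, 49.5% of all fitted), with a median of -0.69. Limma called 0 of the 10 (0.22% of all fitted). An unadjusted p under 0.05 was found for 3 of them, and for 5 with the block. The shares were 17.6% and 33.1% of the members and 7.37% and 14.9% of all fitted. The group was made after the values were seen, so these shares are no test of it. AT1G04800 was the 1 gene of this group called with the block, in the higher direction. Those below 0 included AT2G48130 at -0.91 ± 0.31, AT5G09480 at -0.85 ± 0.27 and AT2G23540 at -0.75 ± 0.30, whose adjusted p values lay between 0.402 and 0.586. AT5G09480 read 282, 389 and 363 in red-light Ler and 270.2, 131 and 89.9 in red-light atbzip16, without overlap. The 5 regulators and signals had a median of 0.10, the 4 plastid genes 0.02, the 4 light-signalling genes 0.07, the 5 defence-related genes -0.15 and the 5 metabolism and redox genes 0.14.

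Taken within each light condition, which shares arrays with the rule and is given without a test, atbzip16 stood above Ler without overlap for 14 members in the dark (9.86%, against 5.86% of all fitted) and below it for 7 (4.93%, against 6.4%). In red light it stood above for 1 member (0.704%, against 5.34%) and below for 10 (7.04%, against 4.62%). The light response was the larger one in Ler for 90 members and in atbzip16 for 52, with a median difference of -0.11 (atbzip16 minus Ler), and 99 members had responses within 0.5 of each other. The rule chose on these same responses, and no share over all fitted probe sets stands beside these counts. They are description only and do not show a weaker response in either genotype. On the log2 scale with no pseudocount the widest differences were those of 263252_at, 261453_at, AT1G70870 and AT4G19530. From its mean over the 12 arrays, 261453_at lay at -1.50, -0.99 and -4.59 in dark Ler, with replicate 3 far below the others. In dark atbzip16 it lay at -0.62, -0.18 and -0.38. Probe set 263252_at read 36.1, 27.4 and 38.4 in dark Ler, 11.9, 8.8 and 5.8 in dark atbzip16, 254, 346 and 373 in red-light Ler and 271, 335 and 424 in red-light atbzip16. In atbzip16 its dark signals were lower while its red-light signals overlapped with those of Ler, which gave responses of 3.25 in Ler and 5.32 in atbzip16. All 6 of its dark signals lay under 41.6, and with 16 added the responses were 2.76 and 3.84, a difference of 1.08, while that of AT1G68850 was -1.20 (atbzip16 minus Ler). AT1G70870 had responses of 1.58 ± 0.92 in Ler and 3.05 ± 0.92 in atbzip16, with a dark atbzip16 signal of 2.0 on replicate 1, and 1.304 and 1.80 with 16 added.

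Replicate 1 lay low for the median member in all 4 groups. The group means of the rule hold replicate 1, and a low dark replicate 1 raises the light response, so the dark values are tied to the choice of members and all are given as a description. Without dark Ler replicate 1, 115 of the 142 still met the thresholds, and without dark atbzip16 replicate 1, 123 did; without red-light replicate 1 it was 135 in Ler and 134 in atbzip16. Set against the mean of the other 2 arrays of its group, the median member's replicate 1 signal differed by -0.31 in dark Ler, -0.33 in dark atbzip16, -0.50 in red-light Ler and -0.60 in red-light atbzip16, where the median over all fitted probe sets was between -0.04 and 0.02. In red light replicate 1 was the lowest of 3 for 99 members in Ler (69.7%, against 44.6% of all fitted) and for 105 in atbzip16 (73.9%, against 40.9%). In all 4 groups together it was the lowest for 47 members (33.1%, against 15% of all fitted and 11.2% of 268 probe sets lower in red light by the same thresholds). It was lower by 1 or more on the log2 scale in every group for 8 members (5.63%, against 0.421%), among them AT2G34620, AT2G42220, AT3G05730 and AT3G14760. The replicate 1 signal of AT3G05730 differed by -1.51 in dark Ler, -1.97 in dark atbzip16, -2.82 in red-light Ler and -3.49 in red-light atbzip16. For 10 members replicate 1 was the lowest in no group.

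**Figure D5:**
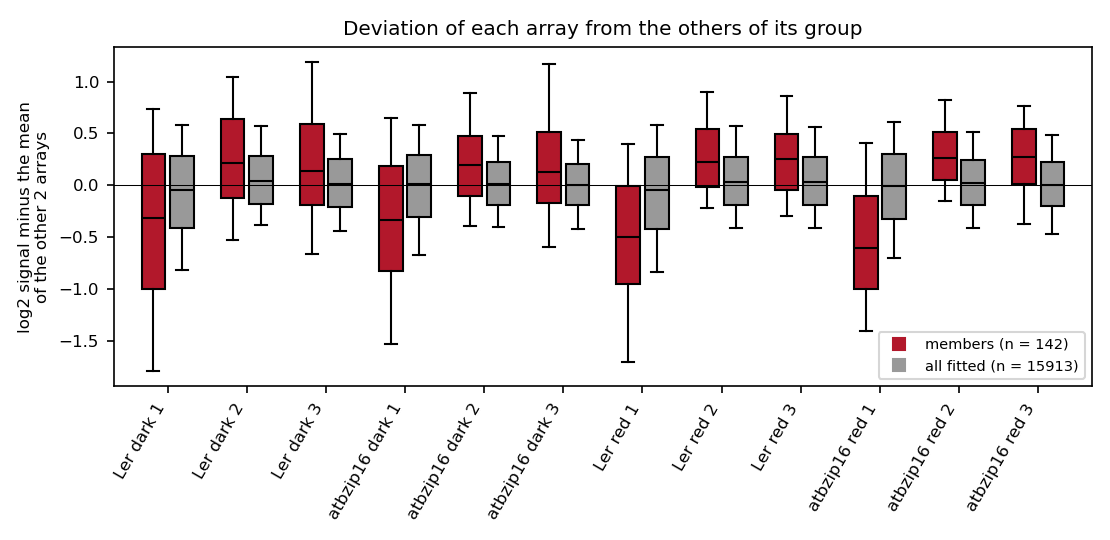
Log2 signal of each array minus the mean of the other 2 arrays of its group, over the 142 members (red) and all 15913 fitted probe sets (grey); boxes span the quartiles with a line at the median, and whiskers reach the 10th and 90th percentiles. The members' boxes sit low in replicate 1 of all 4 groups, most in red light (medians -0.50 and -0.60), while the grey medians stay near 0.

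Markers moved with replicate number too. The 5 seed markers summed to 44537 in replicate 1 of dark Ler against 22255 and 25180.2 in the other 2, and to 76954 in dark atbzip16 against 53748 and 56477. The 4 green markers summed to 15380 in replicate 1 of dark Ler against 18306 and 18971, and to 37118 in red-light atbzip16 against 59008 and 59049. What part the makeup of the samples had in the members' values was not tested. Within replicate numbers, where the rule used the same arrays, the members' median light response was 2.07, 2.22 and 2.15 in Ler and 1.97, 2.16 and 2.16 in atbzip16 for replicates 1, 2 and 3. The residual SD around group means had a median of 0.50 over members and 0.29 over all fitted probe sets, and of 0.29 and 0.21 with replicate as a block.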

How the data were processed

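The authors deposited linear probe set intensity for 12 arrays, made with MAS5 per the submitters' processing notes, which give no version, settings or detection calls. On the deposited values each array had a mean of 500 without the lowest and highest 2%. The intensity was taken to log2 with no pseudocount. The 64 control probe sets and 6833 with a mean log2 signal under 5.38 were left out, and 15913 were fitted with limma 3.58.1 in R 4.3.3 (a mean per group, eBayes with a variance trend), with Benjamini-Hochberg adjustment over all of them and a call at an adjusted p under 0.05. The fit was tested on simulated data drawn without a shared replicate effect, so that test does not bear on the treatment of replicates. Errors are SEs of that model. Array number limits the precision.

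Residuals of arrays sharing a replicate number correlated positively in 18 of 18 pairs over all fitted probe sets (0.164 to 0.506). Over the members these correlations ran from 0.0919 to 0.611. Residuals are centred within each group, so a shift in replicate 1 alone can make the other replicate numbers correlate too. Pairs of different replicate numbers were not compared, so the correlations cannot show that every number pairs arrays. The numbers given in the titles were taken to pair arrays, and values with replicate as a block rest on that assumption. Names came from the platform annotation (13513 probe sets with 1 gene, 503 with several, 8730 not listed), updated by Entrez ID from a table of assembly TAIR10.1. Named members were those with the largest smaller response, the calls, list members, the most unequal responses, the highest signals and those at the threshold, with others added to fill groups by product after their values were seen. Members, lists and groupings were chosen with earlier results of these data known. Promoter and protein sequences were not used here. Alternatives were a pseudocount of 16, median centring, quantile normalization, other filters and thresholds, the block and each array left out.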

Additional observations from a re-analysis of the deposited data

How the results depend on the processing

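The number of members was 142, 122 with a pseudocount of 16, 190 after median centring and 155 after quantile normalization. It was 289 with no filter on low signal, 385 with a threshold of 1 and 67 with one of 2, and 125 to 161 when 1 array was left out. Without replicate 1 it was 164, of which 127 were among the 142. The members' median light response in Ler was 2.03 with the pseudocount, 2.31 after median centring and 2.07 to 2.36 without 1 array, and in atbzip16 1.904, 2.25 and 1.95 to 2.2996. Median centring moved the median response of all fitted probe sets from -0.06 to 0.08 in Ler and from -0.02 to 0.09 in atbzip16. The median averaged genotype difference was 0.00135 to 0.17 without 1 array. Limma called 1 member, 2 with the pseudocount, 11 with the replicate block, 34 with replicates 2 and 3 only, and 1 to 2 without 1 array. AT1G13930 was called under all 19 alternatives run, at -0.85 to -0.76 without 1 array, and 259987_at with the pseudocount, the block, replicates 2 and 3 only and without red-light Ler replicate 1. Of the 10 members named for the averaged difference, 0 changed sign under any alternative. Signal near the bottom of the scale limits the folds of the 36 members under 41.6 in a dark group.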

Other observations

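The 51 named member genes lay on all 5 nuclear chromosomes (16, 8, 8, 8 and 11 on chromosomes 1 to 5), and no 2 of them were direct neighbours. The closest pair was AT4G24050 and AT4G24140, with 8 protein-coding genes between them. Their gene models had a median length of 1512 bases, against 2310 for named genes over all fitted probe sets, in assembly TAIR10.1.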
